A study of Mus musculus with 18 samples.

Results

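The p53 target genes described here are Mdm2, Cdkn1a, Ccng1, Bax, Bbc3, Trp53inp1, Sesn1, Plk2, Btg2 and Phlda3, of which 8 could be measured. Each was read from the brightest probe set that carries its symbol and no other. By that rule 8 of the 10 listed genes were found among 19938 symbols, and Cdkn1a and Bax, which had no such probe set, were not analysed here. RNA had been taken from immortalized mouse embryonic fibroblast (MEF) cells of 1 stock and read on 18 Affymetrix mouse gene arrays, 3 for each of 6 groups. SSBP1-KD and HSF1-KD cells were infected with adenovirus that expresses a short hairpin RNA against SSBP1, a mitochondrial DNA-binding protein, or against HSF1, the master regulator of the heat shock response. SCR cells received the same kind of virus with scrambled RNA. Virus contact lasted 2 h and was followed by 70 h in medium, so that all groups carry an adenovirus. Cells of each kind then spent 1 h at 42 °C (HS) or stayed at 37 °C (Cont), which gives SSBP1-KD HS, SSBP1-KD Cont, HSF1-KD HS, HSF1-KD Cont, SCR HS and SCR Cont.

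The protein p53 is a transcription factor that is kept scarce in unstressed cells by the ubiquitin ligase MDM2, and damage to DNA or other stress lets it accumulate. Its targets arrest the cell cycle, repair DNA, restrain growth or start cell death, and several of them, Mdm2 first, feed back on p53 itself. Fibroblasts are a classical system for this pathway, although immortalized fibroblast lines often carry changes in p53 or in the Arf locus. The state of p53 in these cells was not analysed here. Trp53, the gene of p53, had no probe set with its symbol alone.

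Promoter windows are shown first for the members whose windows hold 1 of 2 motifs that were searched. RefSeq (GRCm38.p6) gave windows of 250 bases upstream of a transcription start for 7 of the 8 measured genes, 10 windows in all. A p53 half-site, the short motif of which a pair makes up a p53 response element, was searched on both strands, which read alike for this motif. It was in 3 of the 10 windows, those of Mdm2, Ccng1 and an internal start of Sesn1, and in 7.13% of 32851 windows of all genes. The cAMP response element TGACGTCA, which also reads alike on both strands, was in 2 of the 10 windows, those of Plk2 and Btg2, against 1.55% of all windows. A match describes the letters and does not show binding. Bbc3 and Sesn1 gave more than 1 window each and windows of Bbc3 overlap, so the 10 windows are not separate units. The windows of all genes were counted at their full 250 bases. The motifs are in capitals, each sequence runs 5′ to 3′ on the strand of its gene, and the Ccng1 window holds 227 bases, since only bases outside the RefSeq span of the gene were kept. The other 5 windows, those of Phlda3, of Bbc3 and of the outermost start of Sesn1, held neither motif.
Mdm2, chr10:117710759-117711008, minus strand: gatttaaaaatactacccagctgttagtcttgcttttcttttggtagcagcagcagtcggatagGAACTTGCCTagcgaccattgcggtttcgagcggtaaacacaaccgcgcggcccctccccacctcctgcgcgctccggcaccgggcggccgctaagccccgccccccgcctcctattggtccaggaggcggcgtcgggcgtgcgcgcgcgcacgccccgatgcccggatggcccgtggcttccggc
Ccng1, chr11:40755310-40755536, minus strand: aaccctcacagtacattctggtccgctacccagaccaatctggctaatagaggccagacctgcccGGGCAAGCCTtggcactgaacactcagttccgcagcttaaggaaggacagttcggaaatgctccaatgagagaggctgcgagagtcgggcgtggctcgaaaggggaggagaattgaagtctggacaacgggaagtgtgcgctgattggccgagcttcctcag
Sesn1, chr10:41887189-41887438, plus strand: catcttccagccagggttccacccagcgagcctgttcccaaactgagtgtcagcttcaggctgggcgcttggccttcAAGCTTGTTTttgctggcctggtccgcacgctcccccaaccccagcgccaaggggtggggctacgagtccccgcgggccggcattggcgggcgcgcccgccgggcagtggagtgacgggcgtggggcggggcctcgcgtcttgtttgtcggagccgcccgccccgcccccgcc
Plk2, chr13:110394794-110395043, plus strand: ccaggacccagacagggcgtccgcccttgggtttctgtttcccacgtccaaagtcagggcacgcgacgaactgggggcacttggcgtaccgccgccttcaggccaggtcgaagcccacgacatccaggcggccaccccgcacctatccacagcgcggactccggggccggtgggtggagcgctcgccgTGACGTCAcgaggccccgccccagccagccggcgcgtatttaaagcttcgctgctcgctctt
Btg2, chr1:134079156-134079405, minus strand: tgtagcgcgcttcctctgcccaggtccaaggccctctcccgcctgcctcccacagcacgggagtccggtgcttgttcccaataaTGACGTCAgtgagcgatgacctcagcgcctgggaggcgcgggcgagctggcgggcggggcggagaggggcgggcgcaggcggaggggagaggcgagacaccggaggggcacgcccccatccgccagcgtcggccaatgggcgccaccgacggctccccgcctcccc
In Mdm2 the half-site began 186 bases before the start, in Ccng1 162 bases and in Sesn1 173 bases. The cAMP response element began 62 bases before the start in Plk2 and 166 bases before it in Btg2.

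The deposited values are log2 signals, so that a difference of 1 is a doubling. All 35557 probe sets were fitted together with limma, and a gene is called higher or lower at a Benjamini-Hochberg adjusted p under 0.05. Array medians lay between 7.88 and 7.94. The labels do not state that the 3 arrays of a group stem from separate cultures, and the p-values then reflect only how far these samples scatter, a scatter that may be technical. The number of arrays limits the precision. SSBP1-KD Cont replicate 1 stood farthest from its group, with a mean absolute residual of 0.152, and of the calls on p53 target genes made with all arrays none was lost without it. Ssbp1, the target of the knockdown, was lower in SSBP1-KD HS than in SCR HS by a log2 difference of -0.41 (adjusted p = 0.00155). The difference in Cont was -0.22 (adjusted p = 0.0555). In SCR cells Ssbp1 was also lower in HS than in Cont, by -0.36 (adjusted p = 0.00614). Hsf1 had no probe set with its symbol alone and its knockdown was not checked here. The paper examined SSBP1 and HSF1 protein in knockdown cells by western blotting, and RNA signal does not measure protein. Fibroblast markers were bright, with a median percentile of 92.9 among all symbols, and the medians of the epithelial, endothelial, blood, neural and muscle marker lists lay between 28 and 42.2. From the 10 fibroblast markers, 1 was higher and 7 were lower in SSBP1-KD HS and 0 higher and 8 lower in HSF1-KD HS than in SCR HS, and in Cont 2 were higher and 7 lower in SSBP1-KD and 0 higher and 7 lower in HSF1-KD. Their summed linear signal was 43800 to 44300 in SSBP1-KD HS, 46100 to 46900 in HSF1-KD HS and 55100 to 58300 in SCR HS, and 43000 to 44700 in SSBP1-KD Cont, 47300 to 49000 in HSF1-KD Cont and 55600 to 57900 in SCR Cont. From the 4 neural markers, 3 were higher in SSBP1-KD HS and 2 in SSBP1-KD Cont (1 to 2 with 1 array left out), and 0 in HSF1-KD at both temperatures. Their sum was 3500 to 3570 in SSBP1-KD HS, 2830 to 2990 in HSF1-KD HS and 2680 to 2940 in SCR HS, and 3340 to 3630 in SSBP1-KD Cont, 2800 to 2850 in HSF1-KD Cont and 2590 to 2990 in SCR Cont. Of these markers Nes lay at percentile 93.9, and Tubb3, Gfap and Sox2 at 43.9, 25.8 and 13. The 5 blood markers summed to 1380 to 1530 in SSBP1-KD Cont, 1340 to 1440 in HSF1-KD Cont and 1100 to 1190 in SCR Cont. In HS they summed to 1890 to 1940 in SSBP1-KD, 1740 to 1820 in HSF1-KD and 1540 to 1770 in SCR. The 4 endothelial markers summed to 627 to 719 in SSBP1-KD Cont, 702 to 724 in HSF1-KD Cont and 588 to 608 in SCR Cont. Over all symbols, 14.3% were higher and 14.4% lower in SSBP1-KD HS than in SCR HS, and 14.6% and 16.5% in Cont. For HSF1-KD these shares were 13.1% and 10.7% in HS and 10.9% and 10.1% in Cont. In RNA from whole cultures, fewer cells of a kind and less RNA per cell cannot be told apart. The part of these shifts in the results below was not tested.

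The 8 measured genes differed in brightness. By mean log2 signal over all arrays, Ccng1 at 12.21 was brighter than 98.2% of symbols, Mdm2 at 11.08 than 91.7% and Plk2 at 11.01 than 90.9%. Phlda3, Btg2, Sesn1 and Trp53inp1 lay between the percentiles 67.5 and 83.5. Bbc3 was the dimmest, with a mean of 7.47 at percentile 36.8, and the only member dimmer than the median symbol. Each of the 8 genes was covered by 1 probe set of its own symbol.

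Knockdown of SSBP1 without heat shock moved 6 of the 8 p53 target genes: Mdm2, Ccng1, Plk2, Phlda3 and Trp53inp1 were higher in SSBP1-KD Cont than in SCR Cont, and Sesn1 was lower. Among all symbols 14.6% were higher and 16.5% were lower in this comparison. The median difference over the 8 genes was 0.24, against 0.05 over all symbols. The members and the lists below were chosen with earlier results of these data known, among them the opposite movement of Mdm2 and Sesn1. Counts and medians of members and lists, here and below, therefore only describe these genes. They do not test whether the members or lists move more often than other symbols.

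Mdm2, whose product marks p53 for degradation, measured 11.19, 11.31 and 11.34 in SSBP1-KD Cont, against 10.77, 10.74 and 10.66 in SCR Cont. The groups did not overlap, and the difference of 0.56 (standard error 0.05, adjusted p = 2.51e-06) is a fold change of 1.47. Ccng1, which encodes cyclin G1, a partner of the phosphatase PP2A in the regulation of MDM2, measured 12.34, 12.50 and 12.42 in SSBP1-KD Cont, against 11.98, 12.00 and 11.93 in SCR Cont. Its lowest SSBP1-KD Cont array was above every SCR Cont array, with a difference of 0.45 (standard error 0.05, adjusted p = 1.5e-05).

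Plk2, a polo-like kinase with roles in centriole duplication and the response to stress, measured 11.43, 11.65 and 11.64 in SSBP1-KD Cont, against 11.14, 11.23 and 10.89 in SCR Cont, a difference of 0.49 (standard error 0.09, adjusted p = 0.000692). Phlda3, which encodes an inhibitor of AKT signalling, measured 10.56, 10.54 and 10.54 in SSBP1-KD Cont and 10.31, 10.38 and 10.27 in SCR Cont, a difference of 0.23 (adjusted p = 0.00165). Neither gene had overlapping groups, and the 3 SSBP1-KD Cont arrays of Phlda3 lay within an SD of 0.0076. Trp53inp1, a nuclear protein gene linked to cell death and autophagy, measured 9.34, 9.43 and 9.41 in SSBP1-KD Cont, against 9.03, 9.20 and 9.22 in SCR Cont, a difference of 0.24 (adjusted p = 0.0234). This call was lost without SCR Cont replicate 1 (adjusted p = 0.111), SSBP1-KD Cont replicate 2 (0.0723) or SSBP1-KD Cont replicate 3 (0.0551). By the methods' t-test with the same adjustment, neither Plk2 (adjusted p = 0.0946) nor Trp53inp1 (0.113) passed.

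Sesn1, which encodes sestrin 1, a stress protein that restrains mTORC1 and limits oxidative damage, measured 8.95, 9.16 and 9.12 in SSBP1-KD Cont, against 9.77, 9.80 and 10.10 in SCR Cont. Every SSBP1-KD Cont array was below every SCR Cont array, with a difference of -0.81 (standard error 0.09, adjusted p = 1.89e-05) and a fold change of 0.569. It was the largest difference of a member in any of the 9 comparisons of 2 groups, and the only one in this comparison past a fold change of 1.5. Btg2, an antiproliferative gene, gave -0.06 (adjusted p = 0.571), with overlapping groups. Bbc3, which encodes the BH3-only protein PUMA, gave 0.10 (adjusted p = 0.347), and its SSBP1-KD Cont arrays at 7.74, 7.41 and 7.54 spanned the range of the SCR Cont arrays at 7.40, 7.48 and 7.49.

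**Figure D1:**
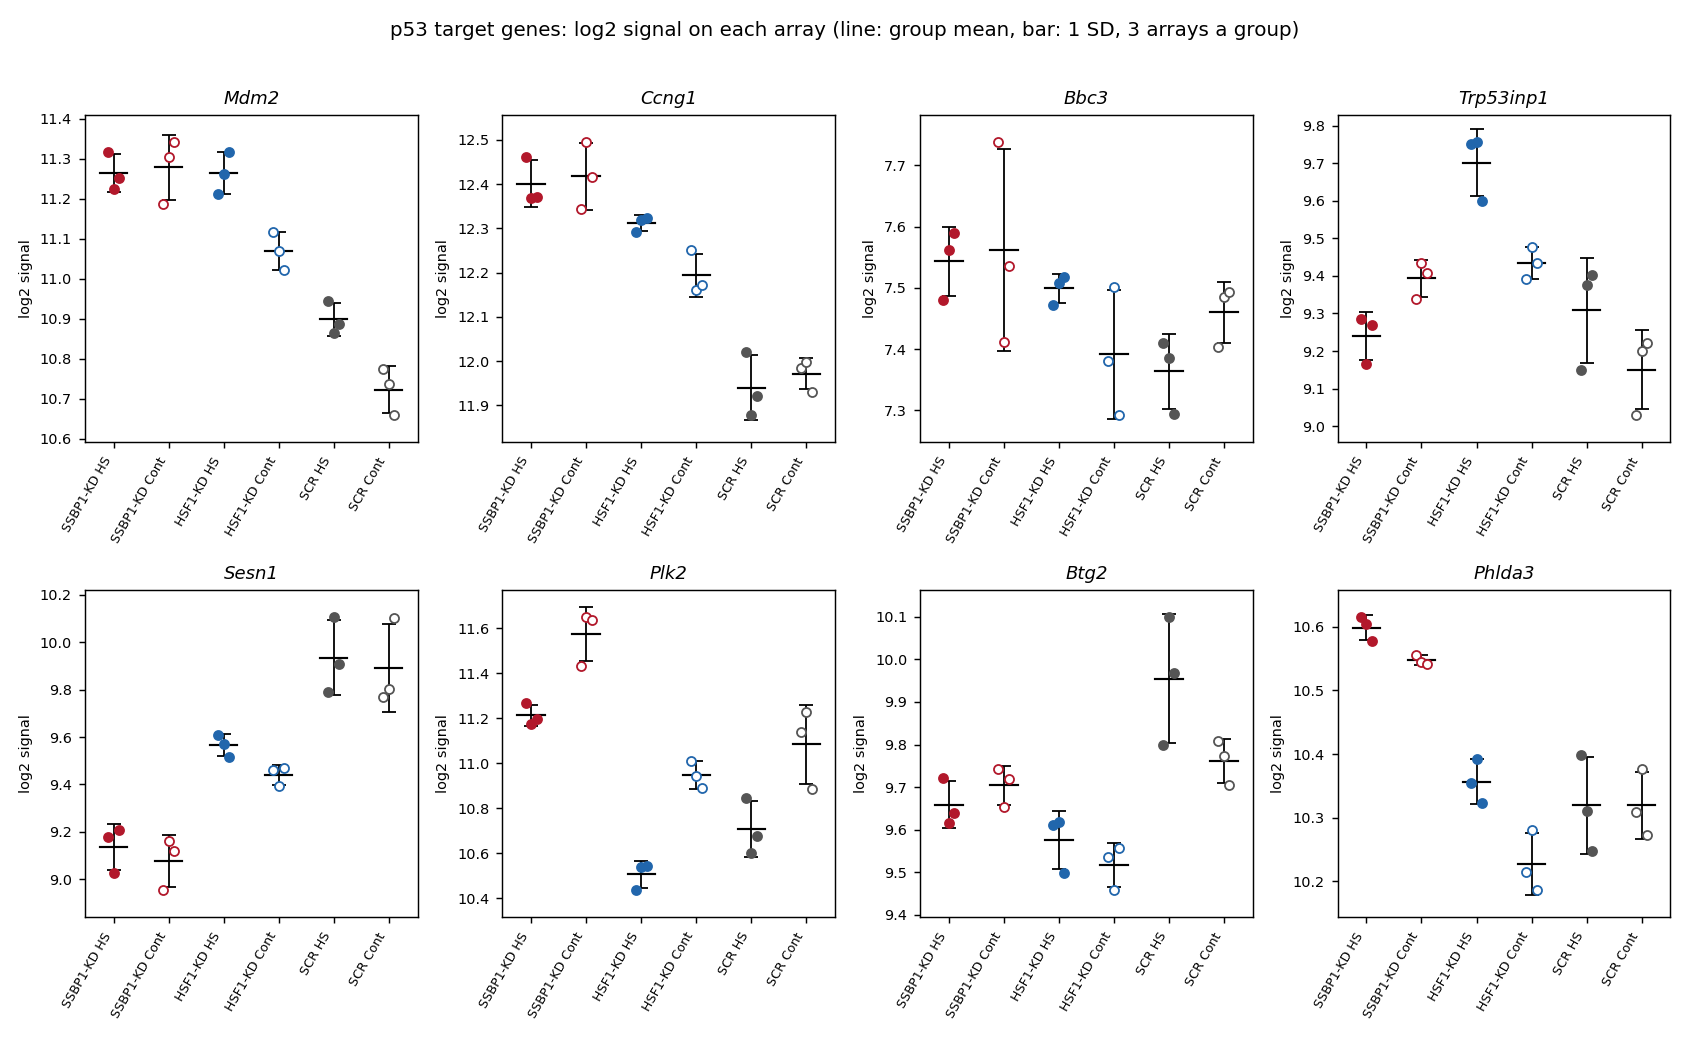
Log2 signal of the 8 measured p53 target genes on each of the 18 arrays, with filled circles for HS and open circles for Cont, the group mean as a line and 1 SD as a bar (3 arrays a group). Mdm2 and Ccng1 have their highest group means in SSBP1-KD and their lowest in SCR, with HSF1-KD HS level with SSBP1-KD for Mdm2, Sesn1 is highest in SCR and lowest in SSBP1-KD, and Bbc3 overlaps between neighbouring groups.

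After heat shock, the same knockdown again gave 6 called members, with Btg2 in place of Trp53inp1: Mdm2, Ccng1, Plk2 and Phlda3 were higher in SSBP1-KD HS than in SCR HS, and Sesn1 and Btg2 were lower. The shares over all symbols were 14.3% higher and 14.4% lower. Mdm2 measured 11.32, 11.22 and 11.25 in SSBP1-KD HS, against 10.94, 10.86 and 10.89 in SCR HS, a difference of 0.37 (standard error 0.05, adjusted p = 0.000101). Ccng1 measured 12.46, 12.37 and 12.37 in SSBP1-KD HS and 12.02, 11.88 and 11.92 in SCR HS, a difference of 0.46 (adjusted p = 1.23e-05). In both genes every SSBP1-KD HS array was above every SCR HS array.

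Plk2 was higher by 0.50 (standard error 0.09, adjusted p = 0.000567), with 11.27, 11.18 and 11.20 in SSBP1-KD HS, against 10.85, 10.60 and 10.68 in SCR HS. Phlda3 was higher by 0.28 (adjusted p = 0.000333). Sesn1 measured 9.18, 9.03 and 9.21 in SSBP1-KD HS and 9.79, 10.11 and 9.91 in SCR HS, a difference of -0.80 (standard error 0.09, adjusted p = 2.28e-05). Btg2 measured 9.72, 9.62 and 9.64 in SSBP1-KD HS, against 9.80, 10.10 and 9.97 in SCR HS, a difference of -0.30 (adjusted p = 0.00398), and its groups were separated by less than the spread of the SCR HS arrays. A fit on the compared arrays alone ended the call of Btg2 (adjusted p = 0.0525). Trp53inp1 gave -0.07 (adjusted p = 0.592) and Bbc3 0.18 (adjusted p = 0.098), and Bbc3 passed without SSBP1-KD Cont replicate 1 (adjusted p = 0.0325).

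Knockdown of HSF1 moved 5 of the 8 genes at both temperatures, in each case Mdm2, Ccng1 and Trp53inp1 higher and Sesn1 and Btg2 lower than in SCR. These comparisons share their SCR arrays with those of SSBP1-KD, so the 2 knockdowns are not independent of each other as measured here. Over all symbols, 13.1% were higher and 10.7% lower in HSF1-KD HS than in SCR HS, and 10.9% were higher and 10.1% lower in HSF1-KD Cont than in SCR Cont. No member passed a fold change of 1.5 in either.

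Mdm2 measured 11.21, 11.26 and 11.32 in HSF1-KD HS, a difference from SCR HS of 0.37 (standard error 0.05, adjusted p = 0.000134), and 11.12, 11.07 and 11.02 in HSF1-KD Cont, a difference from SCR Cont of 0.35 (adjusted p = 0.000269). Ccng1 was higher by 0.37 in HS (adjusted p = 9.42e-05) and by 0.22 in Cont (adjusted p = 0.00628), with HSF1-KD arrays at 12.29, 12.32 and 12.32 in HS and 12.25, 12.16 and 12.17 in Cont. Trp53inp1 measured 9.75, 9.76 and 9.60 in HSF1-KD HS, against 9.15, 9.37 and 9.40 in SCR HS, a difference of 0.39 (standard error 0.07, adjusted p = 0.00128). These were its 3 brightest arrays of all 18. In Cont the Trp53inp1 difference was 0.28 (adjusted p = 0.0136), and it was lost without SCR Cont replicate 1 (adjusted p = 0.0722) or HSF1-KD Cont replicate 2 (0.057).

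Sesn1 measured 9.61, 9.57 and 9.52 in HSF1-KD HS, a difference from SCR HS of -0.37 (standard error 0.09, adjusted p = 0.0118), which did not pass without SCR HS replicate 2 (adjusted p = 0.069). In HSF1-KD Cont it measured 9.46, 9.39 and 9.47, a difference from SCR Cont of -0.45 (adjusted p = 0.00352). Its HSF1-KD arrays lay between those of SSBP1-KD and those of SCR at each temperature, with no overlap. Btg2 was lower by -0.38 in HS (standard error 0.07, adjusted p = 0.00084) and by -0.25 in Cont (adjusted p = 0.019). The Cont call was lost without SCR Cont replicate 1 (adjusted p = 0.0743), SCR Cont replicate 2 (0.0557) or HSF1-KD Cont replicate 2 (0.083). Plk2 and Phlda3, both higher in SSBP1-KD, were not called in HSF1-KD: Plk2 gave -0.20 in HS (adjusted p = 0.138) and -0.14 in Cont (0.336), and Phlda3 gave 0.04 (0.692) and -0.09 (0.191). By the methods' t-test with the same adjustment, 2 of the 8 members passed in HSF1-KD against SCR in HS and 2 in Cont, the higher ones Mdm2 and Ccng1.

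Set directly against each other, the 2 knockdowns differed in 4 members after heat shock and in 5 without it. Plk2 and Phlda3 were higher and Sesn1 was lower in SSBP1-KD than in HSF1-KD at both temperatures. The shares over all symbols were 11.6% higher and 14.1% lower in HS, and 12.9% higher and 16.6% lower in Cont. For Plk2 the difference was 0.71 in HS (standard error 0.09, adjusted p = 3.2e-05) and 0.63 in Cont (adjusted p = 7.92e-05), fold changes of 1.63 and 1.54, and no SSBP1-KD array overlapped an HSF1-KD array. Phlda3 gave 0.24 in HS (adjusted p = 0.00114) and 0.32 in Cont (adjusted p = 9.12e-05), and Sesn1 gave -0.43 (adjusted p = 0.00381) and -0.36 (adjusted p = 0.0107), and the Cont value of Sesn1 did not pass by the methods' t-test (adjusted p = 0.0545).

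Mdm2 and Ccng1 were higher in SSBP1-KD Cont than in HSF1-KD Cont by 0.21 (adjusted p = 0.00744) and 0.22 (adjusted p = 0.00403), and both calls were lost in a fit on the compared arrays alone (adjusted p = 0.105 and 0.0837). After heat shock they gave 0.0009 (95% interval -0.11 to 0.11, adjusted p = 0.996) and 0.09 (adjusted p = 0.275). Trp53inp1 was lower in SSBP1-KD HS than in HSF1-KD HS by -0.46 (standard error 0.07, adjusted p = 0.000282), with 9.29, 9.17 and 9.27 in SSBP1-KD HS, while its difference in Cont was -0.04 (adjusted p = 0.747). Btg2 in Cont gave 0.19 (adjusted p = 0.0536), and passed without SCR HS replicate 1 (0.0202) or SCR HS replicate 2 (0.0265). Bbc3 in Cont gave 0.17 (adjusted p = 0.114) and passed without SSBP1-KD Cont replicate 2 (0.0249).

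**Figure D2:**
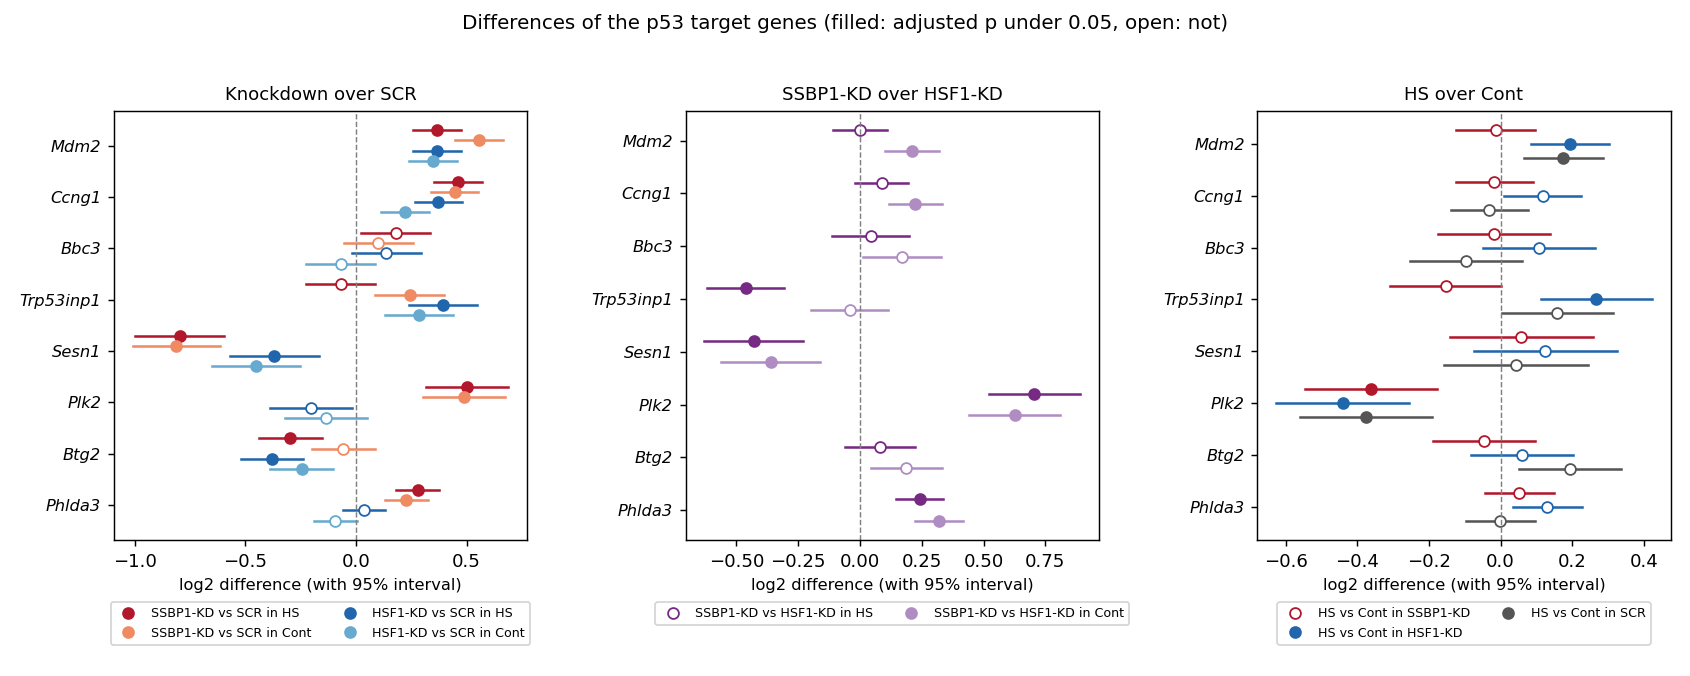
Log2 differences of the 8 measured p53 target genes with 95% intervals, filled where the adjusted p is under 0.05, for each knockdown over SCR (left), SSBP1-KD over HSF1-KD (middle) and HS over Cont (right). Sesn1 lies at -0.80 and -0.81 in SSBP1-KD over SCR, Plk2 is above 0 in SSBP1-KD but not in HSF1-KD, and Plk2 is below 0 after heat shock in all 3 kinds of cell.

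Heat shock for 1 h moved few of these genes, and the change found in all 3 kinds of cell was a lower Plk2. Plk2 measured 11.27, 11.18 and 11.20 in SSBP1-KD HS, against 11.43, 11.65 and 11.64 in SSBP1-KD Cont, a difference of -0.36 (standard error 0.09, adjusted p = 0.0174). In HSF1-KD it measured 10.44, 10.54 and 10.54 in HS and 11.01, 10.94 and 10.89 in Cont, a difference of -0.44 (adjusted p = 0.00219). In SCR it measured 10.85, 10.60 and 10.68 in HS and 11.14, 11.23 and 10.89 in Cont, a difference of -0.38 (adjusted p = 0.0075). HS arrays lay below Cont arrays in each kind of cell. The SSBP1-KD call was lost without SSBP1-KD Cont replicate 2 (adjusted p = 0.0673), SSBP1-KD Cont replicate 3 (0.0569), SSBP1-KD HS replicate 2 (0.0627) or SSBP1-KD HS replicate 3 (0.0583). By the methods' t-test Plk2 did not pass in SSBP1-KD (adjusted p = 0.16) or in SCR (0.166). In a fit on the compared arrays alone it did not pass in SSBP1-KD (adjusted p = 0.0906) or in SCR (0.0653).

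Plk2 was the only member called in SSBP1-KD, where 4.08% of all symbols were higher and 2.82% lower in HS than in Cont. In HSF1-KD, with 10.6% of symbols higher and 10.8% lower, Mdm2 was higher by 0.19 (standard error 0.05, adjusted p = 0.0141) and Trp53inp1 by 0.27 (standard error 0.07, adjusted p = 0.0167). Without HSF1-KD Cont replicate 3 or HSF1-KD HS replicate 3 the Mdm2 call was lost (adjusted p = 0.0614 and 0.0596). The Trp53inp1 call was lost without HSF1-KD Cont replicate 1 (0.0536), HSF1-KD HS replicate 1 (0.0655) or HSF1-KD HS replicate 2 (0.0689). Phlda3 in HSF1-KD gave 0.13 (adjusted p = 0.0553), and passed without HSF1-KD Cont replicate 2 (0.045), SCR HS replicate 1 (0.0393) or SCR HS replicate 3 (0.0481).

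In SCR cells 7.63% of symbols were higher and 8.34% lower in HS than in Cont. Mdm2 was higher by 0.18 (standard error 0.05, adjusted p = 0.0297), with 10.94, 10.86 and 10.89 in SCR HS, against 10.77, 10.74 and 10.66 in SCR Cont. This call was lost without SCR Cont replicate 2 (adjusted p = 0.0665), SCR Cont replicate 3 (0.124), SCR HS replicate 1 (0.107) or SCR HS replicate 3 (0.0677). Btg2 gave 0.19 (adjusted p = 0.0642) and Trp53inp1 0.16 (adjusted p = 0.178), and both passed without SCR HS replicate 1 (0.00757 and 0.0327). Ccng1, Sesn1 and Bbc3 were not called after heat shock in any kind of cell.

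The heat response of the 8 genes was not shown to differ between either knockdown and SCR, and SSBP1-KD was not tested against HSF1-KD. A test of whether heat changed SSBP1-KD cells otherwise than SCR cells passed for 0 of 8 members and 0.492% of all symbols, and the same test for HSF1-KD cells for 0 of 8 members and 0.346% of symbols. Among these tests, the largest difference was that of Trp53inp1, SSBP1-KD minus SCR, at -0.31 (standard error 0.10, adjusted p = 0.278). Mdm2 gave -0.19 (adjusted p = 0.379) and Btg2 -0.24 (adjusted p = 0.396) in the same comparison. For Plk2 it was 0.01 (95% interval -0.25 to 0.28) in SSBP1-KD and -0.06 (-0.33 to 0.20) in HSF1-KD. Trp53inp1 had heat differences of -0.15 in SSBP1-KD (adjusted p = 0.227) and 0.27 in HSF1-KD (adjusted p = 0.0167), a pair that was not tested.

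The order of the 6 groups differed between members. For Mdm2, SSBP1-KD Cont, SSBP1-KD HS and HSF1-KD HS came first with overlapping arrays, followed by HSF1-KD Cont, SCR HS and SCR Cont, each clear of the next. Ccng1 had the same first 4 groups in the same order, of which the 2 SSBP1-KD groups overlapped, with SCR Cont and SCR HS last and overlapping. Sesn1 ran from the 2 overlapping SCR groups through HSF1-KD HS and HSF1-KD Cont to the 2 overlapping SSBP1-KD groups. Phlda3 separated SSBP1-KD HS and then SSBP1-KD Cont from the 4 others, in whose order each neighbour overlapped the next. Plk2 began with SSBP1-KD Cont, clear of SSBP1-KD HS, which overlapped SCR Cont, and ended with SCR HS and HSF1-KD HS, each clear of its neighbour. In Bbc3 and Btg2 every pair of neighbouring groups overlapped, and in Trp53inp1 only the first, HSF1-KD HS, was clear of the next.

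Genes that belong to the families of these members did not always move with them. Ccng2, which encodes cyclin G2, a relative of cyclin G1 known as a target of FOXO transcription factors, was lower in SSBP1-KD where Ccng1 was higher. Ccng2 measured 8.26, 8.35 and 8.42 in SSBP1-KD Cont, against 9.45, 9.45 and 9.68 in SCR Cont, a difference of -1.18 (standard error 0.10, adjusted p = 1.21e-06) and a fold change of 0.441. After heat shock it gave -1.05 (adjusted p = 3.75e-06) in SSBP1-KD, and in HSF1-KD it gave -0.50 in HS (adjusted p = 0.00243) and -0.64 in Cont (adjusted p = 0.000419). The SSBP1-KD arrays lay below all others, and the HSF1-KD arrays below the SCR arrays.

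Of the other sestrins, Sesn3, also known as a FOXO target, was lower with Sesn1 in SSBP1-KD, by -0.60 in HS (adjusted p = 2.42e-05) and by -0.49 in Cont (adjusted p = 0.000124). Sesn2, which is known to be raised by ATF4 as well as by p53, measured 10.30, 10.29 and 10.32 in SSBP1-KD Cont, against 9.89, 9.99 and 9.79 in SCR Cont, a difference of 0.41 (adjusted p = 0.00068). In HS the Sesn2 difference was 0.07, which was not called. Plk3, a polo-like kinase close to Plk2, was higher in SSBP1-KD by 0.32 in HS (adjusted p = 0.00261) and by 0.61 in Cont (adjusted p = 1.25e-05), and in HSF1-KD Cont by 0.31 (adjusted p = 0.005), where Plk2 was not. In HSF1-KD HS Plk3 was higher than in SCR HS by 0.21, a call lost when any HSF1-KD HS or SCR HS array was left out (adjusted p up to 0.13). Cdkn1b, the gene of the cell cycle inhibitor p27 and a relative of Cdkn1a, was lower in both knockdowns, by -0.51 in HS (adjusted p = 4.24e-05) and -0.41 in Cont (adjusted p = 0.000242) in SSBP1-KD, and by -0.77 (adjusted p = 1.03e-06) and -0.68 (adjusted p = 6.01e-06) in HSF1-KD. Of 11 measured relatives, 3 were higher and 5 lower in SSBP1-KD HS than in SCR HS, and 3 were higher and 4 lower in SSBP1-KD Cont than in SCR Cont. Among all symbols, 14.3% were higher and 14.4% lower in HS, and 14.6% higher and 16.5% lower in Cont.

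**Figure D3:**
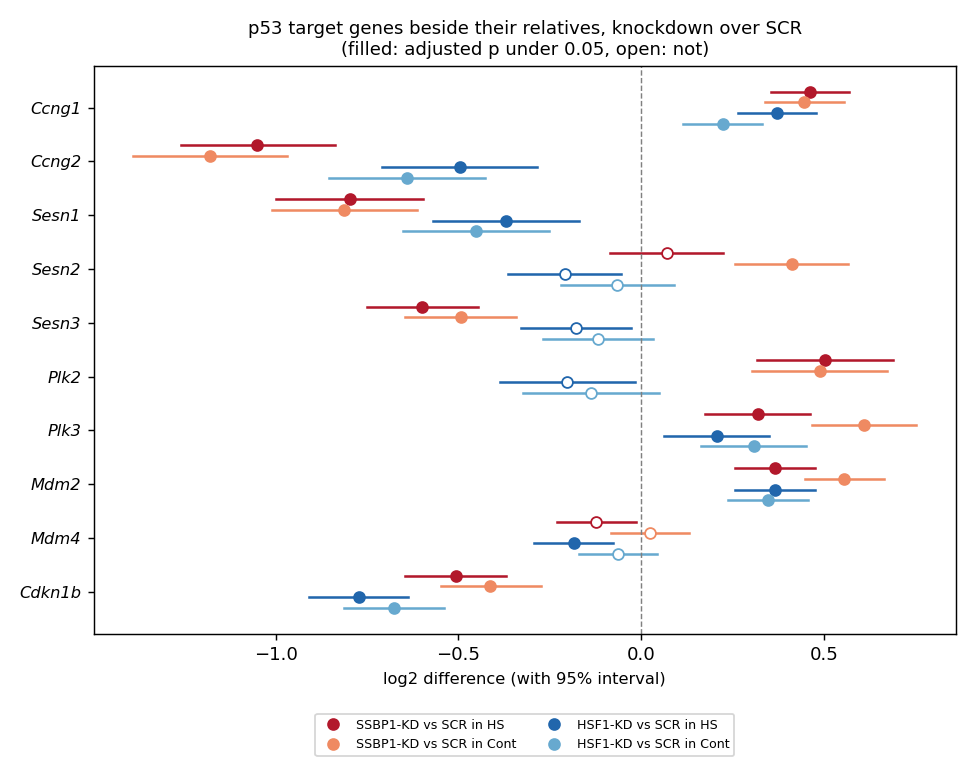
Log2 differences from SCR, with 95% intervals, of Ccng1, Sesn1, Plk2 and Mdm2 beside relatives of theirs and of Cdkn1b, filled where the adjusted p is under 0.05. Ccng1 and Ccng2 lie on opposite sides of 0 in all 4 comparisons, and in SSBP1-KD over SCR in Cont Sesn1 and Sesn3 lie below 0 and Sesn2 above.

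Regulators of p53 were called in both directions, as were all symbols. Of 16 measured, 5 were higher and 2 lower in SSBP1-KD HS than in SCR HS, and 4 were higher and 3 lower in SSBP1-KD Cont than in SCR Cont, with a median difference of 0.07 in Cont against 0.05 over all symbols. Among all symbols, 14.3% were higher and 14.4% lower in HS, and 14.6% higher and 16.5% lower in Cont. The HS count of 7 called genes was 4 without SCR HS replicate 2. Usp7, a deubiquitinase that stabilizes MDM2, was higher in SSBP1-KD by 0.29 in HS (adjusted p = 0.000209) and by 0.28 in Cont (adjusted p = 0.000271). In Cont the checkpoint kinase gene Chek1 gave 0.28 (adjusted p = 0.000264), Chek2 gave -0.31 (adjusted p = 0.0011), and Ppm1d, a phosphatase gene that is itself a p53 target, gave 0.20 (adjusted p = 0.00258). Cdkn2a, whose Arf product restrains MDM2, was read per symbol, and the value does not say which of its transcripts changed. Cdkn2a was lower in SSBP1-KD by -0.24 in HS (adjusted p = 0.00415) and by -0.24 in Cont (adjusted p = 0.004). It was also lower in HSF1-KD HS than in SCR HS, by -0.19 (adjusted p = 0.0244), a call lost without SCR HS replicate 2 (0.126) or HSF1-KD HS replicate 2 (0.0876) or 3 (0.101). In HSF1-KD Cont it gave -0.06 (adjusted p = 0.552), and SSBP1-KD HS against HSF1-KD HS gave -0.05 (adjusted p = 0.609). In HSF1-KD, 13.1% of all symbols were higher and 10.7% lower in HS, and 10.9% higher and 10.1% lower in Cont. Of the 16 regulators, 4 were higher and 2 lower in HS, and 4 were higher and 1 lower in Cont. The 6 called in HS became 3 without HSF1-KD HS replicate 2. Atm, the kinase gene of the DNA damage response, was among the higher ones, by 0.40 in HS (adjusted p = 8.34e-05) and 0.31 in Cont (adjusted p = 0.000817).

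Mdm4, the partner of Mdm2 in restraining p53, was not called between SSBP1-KD and SCR (-0.12 in HS, adjusted p = 0.102, and 0.02 in Cont, adjusted p = 0.768), although the HS value passed without SSBP1-KD Cont replicate 1 (adjusted p = 0.0343) or SCR HS replicate 1 (0.0268). In HSF1-KD HS Mdm4 was lower than in SCR HS by -0.19 (adjusted p = 0.0178), and in Cont the difference was -0.06 (adjusted p = 0.458). The HS call was lost without SCR HS replicate 2 (adjusted p = 0.0792) or 3 (0.0841), or HSF1-KD HS replicate 1 (0.054) or 2 (0.0574). Mdm4 was higher after heat shock in all 3 kinds of cell. Mdm4 measured 10.53, 10.66 and 10.67 in SCR HS, against 10.26, 10.25 and 10.25 in SCR Cont, a difference of 0.37 (standard error 0.05, adjusted p = 0.000153). The heat difference was 0.24 in HSF1-KD (adjusted p = 0.00304) and 0.22 in SSBP1-KD (adjusted p = 0.014, and 0.0514 without SSBP1-KD HS replicate 3). HS and Cont arrays did not overlap in any of the 3.

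Other targets of p53 were also called in both directions. Of 10 genes for arrest and DNA repair, 5 were higher and 2 lower in SSBP1-KD HS than in SCR HS, and 2 were higher and 1 lower in SSBP1-KD Cont than in SCR Cont. Among all symbols, 14.3% were higher and 14.4% lower in HS, and 14.6% higher and 16.5% lower in Cont. The counts in Cont lay near these shares. The 3 called in Cont became 5 without SSBP1-KD Cont replicate 1, and the 5 higher ones in HS became 3 without replicate 1 of SSBP1-KD HS or replicate 1 or 3 of SCR HS. Gtse1, a regulator of p53 in G2, was higher in SSBP1-KD by 0.51 in HS (adjusted p = 1.83e-05) and by 0.28 in Cont (adjusted p = 0.00244). Ddb2, a DNA damage sensor, was lower by -0.53 in HS (adjusted p = 0.000303) and by -0.50 in Cont (adjusted p = 0.000496), and in HSF1-KD by -0.51 (adjusted p = 0.000539) and -0.35 (adjusted p = 0.00913).

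From the 10 apoptosis targets, 4 were higher and 2 lower in SSBP1-KD HS than in SCR HS, and 3 were higher and 2 lower in SSBP1-KD Cont than in SCR Cont. Among all symbols, 14.3% were higher and 14.4% lower in HS, and 14.6% higher and 16.5% lower in Cont. Aen, a nuclease gene, was higher by 0.52 in HS (adjusted p = 0.000157) and 0.48 in Cont (adjusted p = 0.000297), and Bid, a BH3-only gene, by 0.55 (adjusted p = 0.000251) and 0.40 (adjusted p = 0.00292). Fas, a death receptor gene, was lower by -0.52 in HS (adjusted p = 0.000954) and -0.53 in Cont (adjusted p = 0.000792), and Ei24 by -0.36 (adjusted p = 0.000273) and -0.53 (adjusted p = 1.11e-05). Of the 7 measured metabolism and autophagy targets, 3 were higher and 2 lower in HS, and 4 were higher and 2 lower in Cont, where 2 were higher without SSBP1-KD Cont replicate 1. Tigar, which lowers glycolytic flux, was higher in SSBP1-KD by 0.44 in both HS (adjusted p = 0.000492) and Cont (adjusted p = 0.000436). Dram1, an autophagy gene, was lower by -0.55 in HS (adjusted p = 3.34e-05) and -0.51 in Cont (adjusted p = 6.35e-05), and Ddit4, an inhibitor of mTORC1, by -0.64 (adjusted p = 0.000241) and -0.55 (adjusted p = 0.000859).

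Cell cycle genes that p53 lowers through p21 and the DREAM complex were called in both directions in HS. In Cont each knockdown had 1 call, which was lower. Of 11 measured, 4 were higher and 1 lower in SSBP1-KD HS than in SCR HS, and 0 were higher and 1 lower in SSBP1-KD Cont than in SCR Cont, at medians of 0.08 and 0.04 against 0.03 and 0.05 over all symbols. All symbols were 14.3% higher and 14.4% lower in HS, and 14.6% higher and 16.5% lower in Cont. The 1 call in Cont became 2 without SSBP1-KD Cont replicate 3. Top2a, the lower one, gave -0.25 in HS (adjusted p = 0.00152) and -0.20 in Cont (adjusted p = 0.00729). In HS, Mybl2 at 0.34 (adjusted p = 0.000666) and Plk1 at 0.29 (adjusted p = 0.000163) were among the higher ones. In HSF1-KD, 13.1% of all symbols were higher and 10.7% lower in HS, and 10.9% higher and 10.1% lower in Cont. Of the 11 measured genes, 2 were higher and 1 lower in HS and 0 were higher and 1 lower in Cont. The 1 lower in Cont became 2 without replicate 1 or 2 of HSF1-KD Cont, and 0 without replicate 3 of HSF1-KD Cont or replicate 1 or 2 of SCR Cont. Of the 7 BCL2 family genes, 2 were higher and 1 lower in SSBP1-KD HS, and 4 were higher and 0 lower in SSBP1-KD Cont. The 4 in Cont became 2 without SCR Cont replicate 3, and the 3 called in HS became 1 without replicate 1 or 3 of SSBP1-KD HS or replicate 3 of SCR HS. Bak1 was higher in SSBP1-KD HS by 0.47 (adjusted p = 3.9e-05), and Mcl1 in SSBP1-KD Cont by 0.24 (adjusted p = 0.00169). In SSBP1-KD HS, Mcl1 was lower by -0.14 (adjusted p = 0.0443), a call that was lost when any of 13 of the 18 arrays was left out, with an adjusted p of up to 0.193 without SCR HS replicate 3.

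In HSF1-KD against SCR, 13.1% of all symbols were higher and 10.7% lower in HS, and 10.9% higher and 10.1% lower in Cont. Of the 10 arrest and repair targets, 3 were higher and 2 lower in HS and 0 higher and 1 lower in Cont. Of the 10 apoptosis targets, 3 were higher and 2 lower in HS and 1 higher and 1 lower in Cont, the higher one in Cont being Apaf1 at 0.27 (adjusted p = 0.00838). Of the 7 metabolism targets, 2 were higher and 1 lower in HS and 1 higher and 0 lower in Cont, and of the 7 BCL2 family genes 2 were higher in HS and 1 in Cont, where Bcl2l1 gave 0.33 (adjusted p = 0.00019). With 1 array left out, the called apoptosis targets numbered 2 to 6 in HS, with 2 without HSF1-KD HS replicate 1 and 3 without HSF1-KD HS replicate 2 or SCR HS replicate 3, and 1 to 4 in Cont, with 1 without SCR Cont replicate 3 or HSF1-KD Cont replicate 1 and 4 without SCR HS replicate 2 or SSBP1-KD Cont replicate 1. The called metabolism targets in HS became 1 without SCR HS replicate 2, and the called arrest and repair targets in Cont became 2 without HSF1-KD Cont replicate 1. The counts of these lists in HSF1-KD Cont lay near the shares over all symbols. Whether the 2 knockdowns differ in these counts was not tested. In SSBP1-KD against SCR, 14.4% of all symbols were lower in HS and 16.5% in Cont. Genes of the interferon response, measured as a sign of the adenovirus, moved with the knockdown. Against SCR HS, 4 of 6 were lower in SSBP1-KD HS and 4 of 6 higher in HSF1-KD HS. Against SCR Cont, 5 of 6 were lower in SSBP1-KD Cont and 4 of 6 higher in HSF1-KD Cont. Their summed linear signal was 2850 to 3160 in SSBP1-KD HS, 5440 to 5860 in HSF1-KD HS and 3600 to 3940 in SCR HS, and 2840 to 3460 in SSBP1-KD Cont, 6040 to 6250 in HSF1-KD Cont and 4350 to 4420 in SCR Cont, and their part in the results above was not tested.

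Phlda1, a relative of Phlda3 that shares its pleckstrin homology-like domain, showed the largest heat response among these relatives. It measured 11.01, 10.96 and 10.99 in SSBP1-KD HS, against 9.96, 10.23 and 10.22 in SSBP1-KD Cont. In HSF1-KD it measured 10.03, 10.11 and 9.89 in HS, against 9.69, 9.59 and 9.63 in Cont, and in SCR 12.12, 12.19 and 12.41 in HS, against 9.69, 9.67 and 9.49 in Cont. The heat difference was 0.84 in SSBP1-KD (adjusted p = 3.01e-05), 0.38 in HSF1-KD (adjusted p = 0.00679) and 2.62 in SCR (adjusted p = 7.45e-11). Phlda3 itself was not called after heat shock in any kind of cell.

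**Figure D4:**
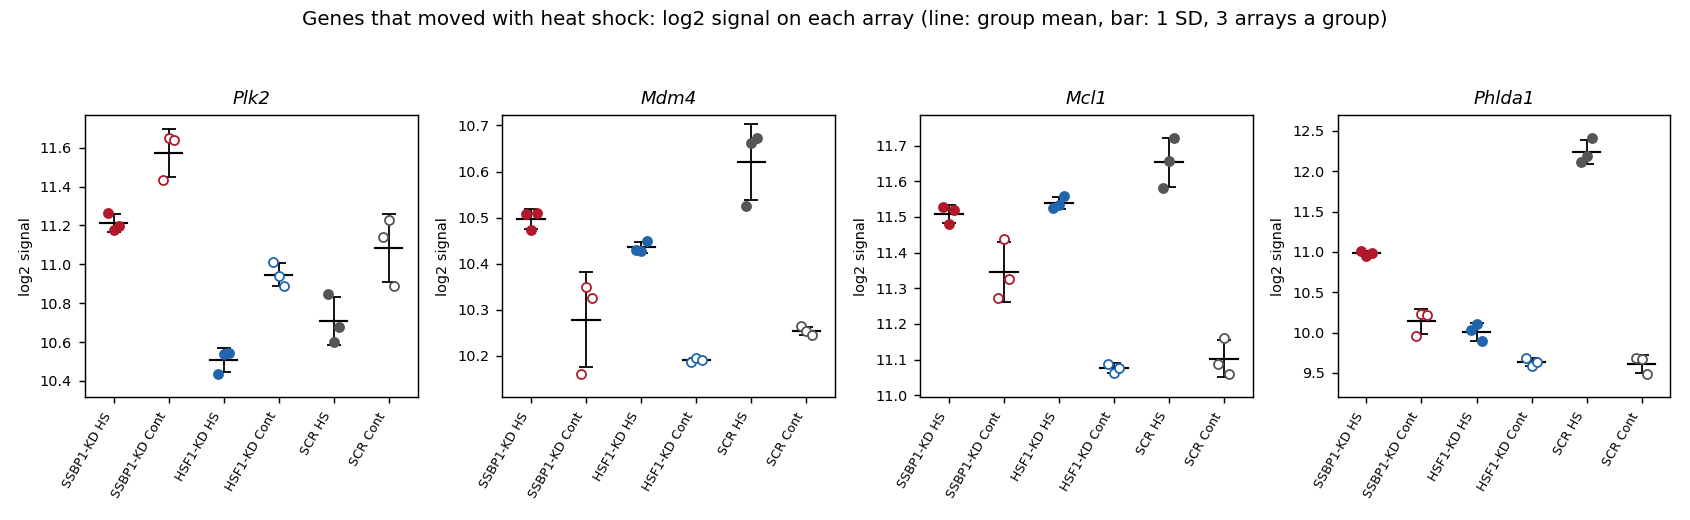
Log2 signal on each array of Plk2, Mdm4, Mcl1 and Phlda1, with filled circles for HS and open circles for Cont, the group mean as a line and 1 SD as a bar (3 arrays a group). Plk2 is lower in HS in each kind of cell and the other 3 are higher, with Phlda1 reaching 12.12 to 12.41 in SCR HS, while the Mcl1 difference in SSBP1-KD (0.16, adjusted p = 0.0497) is lost when any of 15 of the 18 arrays is left out, with an adjusted p of up to 0.151 without SSBP1-KD Cont replicate 1.

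The symbols whose signal followed Mdm2 most closely over the 18 arrays were Nup210l (Pearson r = 0.968), Ddx3x (0.962), Twf1 (0.96), Arg2 (0.96) and Baz1a (0.959), out of 19937 compared. Those nearest to Sesn1 were Clmn (0.983), Aldh1a1 (0.983), Fbxl20 (0.981), Gtdc1 (0.98) and Gatd1 (0.977). These correlations describe the arrays, which fall into 6 groups and share their SCR references, and carry no p-value. Baz1a, a chromatin remodelling subunit, was higher in SSBP1-KD by 0.58 in HS (adjusted p = 1.49e-05) and 0.60 in Cont (adjusted p = 9.8e-06), and Aldh1a1, an aldehyde dehydrogenase, was lower by -1.32 (adjusted p = 3.96e-06) and -1.34 (adjusted p = 3.05e-06).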

How the data were processed

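RNA of 18 samples was read on 1-colour Affymetrix Mouse Gene ST arrays from 200 ng of total RNA each. RMA and Partek 6.5 appear in the submitters' processing notes. What the authors deposited are log2 signals per probe set, and they were not normalized again, since RMA includes background correction and normalization. All 18 columns matched a sample. Of 35557 probe sets, 21789 carry 1 symbol, 1621 several and 12147 none in the platform annotation, and 21698 of the first were updated through RefSeq. Each symbol was read from its brightest probe set with 1 symbol.

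The model was limma's (version 3.58.1, R 4.3.3; lmFit, eBayes, 1 mean per group, no covariate, 12 residual and 2.36 prior degrees of freedom), and two-sided p-values were adjusted by Benjamini-Hochberg over all probe sets. Intervals are at 95%. The fit was tested on simulated data. Named genes were the members, up to 4 called genes per list and comparison with the lowest adjusted p, Mdm4, Cdkn2a, the knockdown targets and the 5 nearest patterns of Mdm2 and Sesn1. Plk3 and Sesn2 in SSBP1-KD HS and Plk3 in HSF1-KD HS fall outside this rule and were chosen after their values were seen. Members and lists were chosen with earlier results of these data known, among them the opposite movement of Mdm2 and Sesn1. Alternatives were other scalings, filters, fits, thresholds and each array left out in turn. For the pathway genes these were chosen after seeing the data. Arrays give no read depth, and their number limits the precision. Promoter windows came from RefSeq, and figures were drawn with matplotlib 3.10.9.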

Additional observations from a re-analysis of the deposited data

Results flagged for a closer look

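The heat response passed a test of its difference between a knockdown and SCR for none of the 8 p53 target genes. In the pathway lists it passed for 1 of 11 measured relatives, Phlda1, and for 1 of 7 BCL2 family genes, Mcl1. The other pathway lists held no gene that passed. Over all symbols, 0.492% passed for SSBP1-KD and 0.346% for HSF1-KD. Differences in heat response between SSBP1-KD and HSF1-KD were not tested. Phlda1, a relative of Phlda3, had a smaller heat response in both knockdowns: the difference in heat response was -1.78 for SSBP1-KD minus SCR (standard error 0.12, adjusted p = 2.22e-05) and -2.25 for HSF1-KD minus SCR (standard error 0.12, adjusted p = 7.99e-08), on the log2 scale. Mcl1, a BCL2 family member that keeps cells alive, measured 11.53, 11.48 and 11.52 in SSBP1-KD HS, against 11.27, 11.44 and 11.33 in SSBP1-KD Cont, and 11.58, 11.66 and 11.72 in SCR HS, against 11.09, 11.16 and 11.06 in SCR Cont. Its difference in heat response, SSBP1-KD minus SCR, was -0.39 (standard error 0.07, adjusted p = 0.0214). Without 1 of 8 arrays in turn this value lay past the threshold of 0.05, up to an adjusted p of 0.0676 without SCR HS replicate 2, so the call on Mcl1 rests on all arrays together.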

How the results depend on the processing

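No called value changed direction, but most alternatives keep the group means and could not change it. Only other scalings, array weights and the loss of an array of the compared groups could do so, for members and pathway genes alike. Of 2349 values of the 8 genes, 2246 stayed on their side of the threshold, 81 no longer passed, 22 newly passed and 0 reversed. Scaling lost 1 call and gained 1, with a largest shift of 0.054. For 38 pathway genes, of 11210 values 10587 stayed on their side, 520 no longer passed (164 of them under the fold threshold), 103 newly passed and 0 reversed. Counts of called genes moved most with a fold threshold of 1.5: to 1 in SSBP1-KD against SCR in HS and in Cont (6 each before), to 0 in HSF1-KD against SCR in HS and in Cont (5 each), to 1 in SSBP1-KD against HSF1-KD in HS (4) and in Cont (5), and to 0 for HS against Cont in SSBP1-KD (1), HSF1-KD (3) and SCR (2). By the methods' t-test with the same Benjamini-Hochberg adjustment the counts were 2 in HSF1-KD against SCR in HS and in Cont, 2 in SSBP1-KD against HSF1-KD in Cont, and 0 in SSBP1-KD, 1 in HSF1-KD and 0 in SCR for HS against Cont. With unadjusted p under 0.05 that t-test gave 6 in HSF1-KD against SCR in HS and 5 in Cont. It gave 6 in SSBP1-KD against HSF1-KD in Cont, and 3 in SSBP1-KD, 6 in HSF1-KD and 2 in SCR for HS against Cont. A fit on the compared arrays alone gave 3 for SSBP1-KD against HSF1-KD in Cont, and for HS against Cont 0 in SSBP1-KD and 0 in SCR. Array weights gave 4 for HS against Cont in SCR. Leaving out 1 array gave 6 to 7 and 5 to 6 calls in SSBP1-KD against SCR in HS and in Cont, 4 to 5 and 3 to 5 in HSF1-KD against SCR, where 3 came without SCR Cont replicate 1 or HSF1-KD Cont replicate 2, 4 and 5 to 6 in SSBP1-KD against HSF1-KD, and 0 to 1, 2 to 4 and 1 to 3 for HS against Cont in SSBP1-KD, HSF1-KD and SCR. With the replicate number as a block, the count for HS against Cont in HSF1-KD was 4 in place of 3, and the other counts were the same. Of 45 same-numbered pairs 6 correlated above 0.1 (range -0.276 to 0.171), and 6 of 18 arrays were closest to their own number, so the numbers were not taken to pair the arrays. A second probe set could not be tried, since each gene has 1. The causes of these changes were not tested.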
